A study of Mus musculus with 8 samples.

Results

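The 10 genes described here are members of the circadian clock or act on it: the basic helix-loop-helix repressors Bhlhe40 and Bhlhe41, the period genes Per1, Per2 and Per3, the cryptochromes Cry1 and Cry2, the nuclear receptors Nr1d1 and Nr1d2, and the output factor Dbp. They were found by symbol, and all 10 were present among the 18768 genes of the deposited count table. Bhlhe40 was chosen by its measured level, which was low in both lines with the IRF8 KO label. The other 9 genes were named for their place in the clock.

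RNA was sequenced from 4 mouse fibrosarcoma cell lines in culture, with 2 libraries each. MC010 and MC011 were established from tumors of IRF8 KO mice, and MC654 and MC659 from tumors of WT C57BL/6 mice. All the mice had received the carcinogen methylcholanthrene (MCA) under the skin, and cells of the dissected tumors were passaged until stable lines grew. The lines were not treated before RNA was taken, and the study asked which genes differ with IRF8, a transcription factor of the interferon regulatory factor family. Each line is 1 tumor, so genotype and tumor of origin are shared within a line. The labels give no mouse age, no time of harvest and no step that would set the cells' clocks to a common phase. The KO allele is not described in the labels.

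The libraries held between 74063616 and 116206078 counts. In the paper, PCR on genomic DNA typed MC654 and MC659 as IRF8 WT and MC010 and MC011 as IRF8 KO. The RNA of Irf8 went against the labels. It had 442, 347, 32 and 10 counts in the libraries labelled IRF8 KO and 1, 2, 1 and 0 counts in those labelled WT. The table has a single count for the whole gene, so it does not show whether these reads cover the altered part of Irf8. All directions below are therefore directions by label. The fibroblast markers, 5 of 5 in the table, summed to 6226 to 8391 CPM (counts scaled by TMM library size) in the KO-labelled libraries. In the WT-labelled libraries they summed to 5782 to 6805 CPM. Vim made up most of both sums, at 5240 to 7384 CPM and 4532 to 4900 CPM. Thy1 was at 8.68 to 12.8 CPM in MC010, MC654 and MC659, and at 72.3 and 68.1 CPM in MC011. Thy1 was called higher by label (log2 fold change 1.93, edgeR adjusted p = 0.0417), and the other fibroblast markers were not called. Col1a1 had a mean of 87.4 CPM in MC010 and 440 CPM in MC011. The 4 of 6 hematopoietic markers in the table summed to 5.72 to 7.38 CPM in the KO-labelled and 9.67 to 11.5 CPM in the WT-labelled libraries. Most of that sum was Cd68, at 5.25 to 6.74 CPM and 8.25 to 10.1 CPM. Csf1r, a macrophage receptor, was lower by label (log2 fold change -1.93, edgeR adjusted p = 0.002) at 0.245 to 0.477 CPM and 0.935 to 1.80 CPM. Ptprc, the pan-leukocyte marker, had 0.157 and 0.177 CPM in MC010 and 0 to 0.0240 CPM in the other lines. Cd79a was higher under the KO label, at 0.0874 to 0.190 CPM against 0.0222 to 0.0680 CPM. Neither Ptprc nor Cd79a passed the filter on low counts. The 4 epithelial markers summed to 33.3 to 565 CPM and 114 to 129 CPM, and Krt8 among them had a mean of 284 CPM in MC010 and 1.29 CPM in MC011. Only Epcam among them was called by label, higher (2.20, edgeR adjusted p = 0.00858) at 0.313 to 1.19 CPM and 0.118 to 0.180 CPM. The 3 endothelial markers summed to 0.405 to 0.708 CPM and 0.465 to 0.671 CPM. Only Tek among them was called by label, higher (2.37, edgeR adjusted p = 0.00575) at 0.122 to 0.405 CPM and 0.0227 to 0.0667 CPM. The part of any of these markers in the differences below was not tested. In such bulk RNA, fewer cells that express a gene and less RNA per cell cannot be told apart.

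The mammalian clock is a feedback loop of transcription. CLOCK, or its relative NPAS2, pairs with BMAL1, the product of Arntl, and activates genes through E-boxes, and the PER and CRY proteins made from these genes enter the nucleus and repress the same pair. BHLHE40 and BHLHE41, also called DEC1 and DEC2, compete at E-boxes as further repressors, and Bhlhe40 is also induced by hypoxia, serum and other stimuli. The products of Nr1d1 and Nr1d2, the REV-ERB receptors, repress Arntl through ROR elements (ROREs) that the ROR receptors activate, and DBP activates genes through D-boxes. Fibroblasts carry this loop, and in unsynchronized culture the phases of single cells drift apart, so that bulk RNA averages over them.

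The sites named above are short, and those found in the promoters of these genes are shown because they are the letters through which the loop connects its members. RefSeq promoters (GRCm38.p6, 250 bases before to 50 after a start site) matched 8 of the 10 members, all but Bhlhe40 and Per2. Both strands were searched for the E-box CACGTG, the RORE TAGGTCA or TGGGTCA and the D-box TTANGTAA, none of which contains another. Capitals mark the match, flanks are in lower case, and a position is that of the first matched base with the start site at 0.
Per3, D-box at -205, chr4:151044854-151044879, minus strand: acccgcgcgTTATGTAAggtactcgg
Per3, D-box at -158, chr4:151044807-151044832, minus strand: cgcccgcggTTATGTAAcccccgccg
Bhlhe41, E-box at -153, chr6:145865559-145865582, minus strand: tacgttccgCACGTGagctgggtg
Cry1, E-box at -60, chr10:85185100-85185123, minus strand: gccggtggtCACGTGgggtgcatg
Per1, E-box at -166, chr11:69098774-69098797, plus strand: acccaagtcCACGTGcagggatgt
Arntl, RORE at 30, chr7:113207532-113207556, plus strand: ggcagaaagTAGGTCAgggacggag
Rorb, D-box on the other strand at -95 of 1 of its 2 promoters, chr19:19001196-19001221, minus strand: ctttcacccTTACTTAAtgaaacgaa
Ciart, E-box at -116, chr3:95882330-95882353, minus strand: atctagagtCACGTGttgccggta
Ciart, E-box at -58, chr3:95882272-95882295, minus strand: agggggaggCACGTGcagaaccgc
Ciart, E-box at -44, chr3:95882258-95882281, minus strand: gcagaaccgCACGTGtctgggagg

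Of all 32851 promoters of this length, 7.15% held the E-box, 6.45% the RORE and 2.32% the D-box. Among the members, the promoters of Cry1 and Bhlhe41 held the E-box and that of Per3 held 2 D-boxes. Of the Per1 promoters, that at chr11:69098699-69098998 held the E-box and that at chr11:69099902-69100201 did not. The letters searched were not in the windows of Cry2, Nr1d1, Nr1d2 and Dbp, which says nothing of sites elsewhere in those genes. Arntl, Rorb and Ciart are no members and are shown because they were called by label (below) and a promoter of each held a match. The promoters of Npas2, Hlf and Usp2, also called, held no match. Fbxl21 was called but was not part of the promoter search, and no promoter was found for Klf10, another called gene. A match is a description of the sequence and not a bound site.

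Bhlhe40 (chromosome 6, 108660629 to 108666925 in mm10) had 28.9 and 28.3 CPM in MC010, 28.5 and 29.7 CPM in MC011, and 123 and 116 CPM in MC654. Bhlhe40 in MC659 stood at 121 and 126 CPM. All 4 libraries labelled IRF8 KO lay below all 4 labelled WT, and the lines of one label lay close together. The KO-labelled libraries averaged 28.8 CPM ± 0.646 (SD, n = 4) and the WT-labelled libraries 122 CPM ± 4.05 (SD, n = 4). On the log2 scale the fold change was -2.08, or 4.22-fold lower. Since the gene was selected on this difference, it is given as a description with no test. Among the 15153 genes tested, 364 had a lower log2 fold change by label than Bhlhe40. The log2 fold change stayed between -2.10 and -2.06 over 18 alternatives in processing, including those that left out a whole line. Bhlhe40 was chosen for a like fall in both KO-labelled lines, so this narrow range is no further support.

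A low level in both KO-labelled lines was part of the choice of Bhlhe40, so the differences within a label are also given with no test. MC010 minus MC011 was -0.03 on the log2 scale (SE 0.05), and MC654 minus MC659 was -0.05 (SE 0.05). The sign of the first difference turned without MC010 library 2 (0.00924) or MC011 library 2 (0.00215).

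Bhlhe41 (chromosome 6, 145858243 to 145865558), the closest relative of Bhlhe40, had 4.33 and 4.22 CPM in MC010, 12.3 and 12.4 CPM in MC011, and 14.4 and 15.0 CPM in MC654. Bhlhe41 in MC659 stood at 18.4 and 19.5 CPM. The KO-labelled libraries lay below the WT-labelled libraries, but MC010 stood well below MC011, and MC011 was nearer to MC654. By label the log2 fold change was -1.02 (SE 0.39, edgeR quasi-likelihood adjusted p = 0.0755), which missed the threshold. Without MC011 library 1 it was -1.27 (adjusted p = 0.0431), without MC011 library 2 -1.28 (adjusted p = 0.0435), and without the whole MC011 line -1.98 (adjusted p = 2.63e-06). Per kilobase of exon, Bhlhe40 was the more abundant of this pair in each line, at 6.07 against 0.636 RPKM (CPM per kilobase) in MC010 and 6.19 against 1.83 RPKM in MC011. The levels were 25.4 against 2.19 RPKM in MC654 and 26.3 against 2.81 RPKM in MC659.

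**Figure D1:**
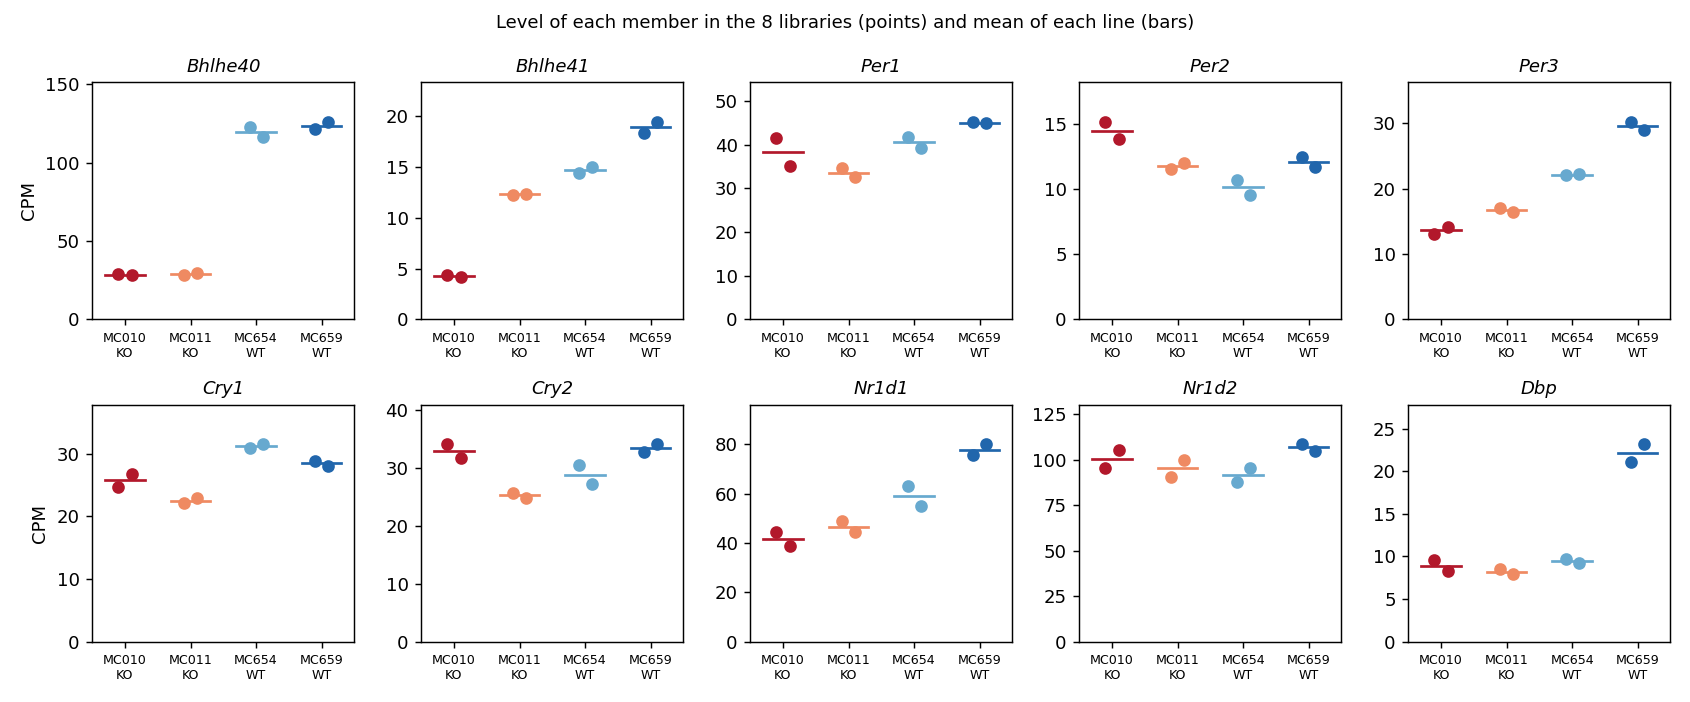
Level of each of the 10 genes in CPM (vertical axis, from 0) in the 8 libraries, by line; points are libraries, bars are line means, red and orange mark the lines labelled IRF8 KO and blue those labelled WT. Bhlhe40 splits by label at 28.8 against 122 CPM, Bhlhe41 is lowest in MC010 alone, Dbp is highest in MC659 alone, and Nr1d2 and Cry2 overlap between labels.

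Per3 (chromosome 4, 151003652 to 151044665), the period gene whose loss has the mildest effect on rhythms, had 13.1 and 14.2 CPM in MC010, 17.1 and 16.4 CPM in MC011, and 22.1 and 22.2 CPM in MC654. Per3 in MC659 stood at 30.2 and 28.9 CPM. The lines did not overlap one another, in the order MC010, MC011, MC654, MC659. The mean was 15.2 CPM ± 1.87 (SD, n = 4) in the KO-labelled libraries and 25.9 CPM ± 4.33 (SD, n = 4) in the WT-labelled libraries. Per3 fell by label, with a log2 fold change of -0.76 (SE 0.14, adjusted p = 0.00422), or 1.70-fold lower. Without the MC659 line, the value was -0.55 (adjusted p = 0.0539). Its promoter is the one with 2 D-boxes shown above.

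Per1 (chromosome 11, 69095217 to 69109960), a core period gene that is also induced acutely by light and hormones, had 41.6 and 35.0 CPM in MC010, 34.6 and 32.6 CPM in MC011, and 41.7 and 39.3 CPM in MC654. Per1 in MC659 stood at 45.2 and 44.9 CPM. The ranges of the labels overlapped through 1 MC010 library. The log2 fold change by label was -0.25 (SE 0.09, adjusted p = 0.0597). Per2 (chromosome 1, 91415982 to 91459324), the period gene whose protein paces the repressor complex together with PER1, had 15.1 and 13.8 CPM in MC010, 11.5 and 12.0 CPM in MC011, and 10.7 and 9.53 CPM in MC654. Per2 in MC659 stood at 12.4 and 11.7 CPM. It was the single member with a positive log2 fold change by label, 0.24 (SE 0.13, adjusted p = 0.185), and the labels overlapped.

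Cry1 (chromosome 10, 85131700 to 85185064), the stronger repressor of the cryptochrome pair, had 24.7 and 26.7 CPM in MC010, 22.2 and 22.9 CPM in MC011, and 30.9 and 31.5 CPM in MC654. Cry1 in MC659 stood at 28.9 and 28.0 CPM. All KO-labelled libraries lay below all WT-labelled libraries, by a small margin. The log2 fold change was -0.31 (SE 0.08, adjusted p = 0.0196), which passed on p but was smaller than the 0.59 required for a call. Cry2 (chromosome 2, 92403646 to 92434043), the other cryptochrome, had 34.0 and 31.7 CPM in MC010, 25.6 and 24.8 CPM in MC011, and 30.4 and 27.1 CPM in MC654. Cry2 in MC659 stood at 32.7 and 34.0 CPM. MC010 and MC659 were high and MC011 was low, so the labels overlapped (log2 fold change -0.10, SE 0.13, adjusted p = 0.577).

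Nr1d1 (chromosome 11, 98767932 to 98775333), which encodes REV-ERBα, had 44.6 and 38.7 CPM in MC010, 48.8 and 44.4 CPM in MC011, and 63.2 and 54.9 CPM in MC654. Nr1d1 in MC659 stood at 75.7 and 80.0 CPM. The KO-labelled libraries all lay below the WT-labelled libraries. Nr1d1 fell by label, with a log2 fold change of -0.63 (SE 0.13, adjusted p = 0.00639), or 1.55-fold lower. The call is close to the fold threshold: leaving out MC010 library 2, MC659 library 1 or MC659 library 2 gave -0.58, -0.586 and -0.55, and leaving out the MC659 line gave -0.43 (adjusted p = 0.0623). With limma-voom and the line as a random block, the call was lost (-0.588, adjusted p = 0.0989 with an estimated correlation). Nr1d2 (chromosome 14, 18204054 to 18239127), which encodes REV-ERBβ, had 95.3 and 105 CPM in MC010, 90.4 and 100.2 CPM in MC011, and 87.7 and 95.8 CPM in MC654. Nr1d2 in MC659 stood at 109 and 105 CPM. The labels overlapped almost fully (log2 fold change -0.02, SE 0.08, adjusted p = 0.861). Per kilobase, Nr1d1 was above Nr1d2 in the WT-labelled libraries, at 22.3 against 18.4 RPKM on average, and below it in the KO-labelled libraries, at 14.3 against 18.1 RPKM.

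Dbp (chromosome 7, 45705088 to 45710203), a transcription factor of the clock's output that is directly activated at E-boxes, had 9.59 and 8.29 CPM in MC010, 8.51 and 7.92 CPM in MC011, and 9.68 and 9.26 CPM in MC654. Dbp in MC659 stood at 21.0 and 23.2 CPM. MC659 stood apart, and MC654 lay with the KO-labelled lines. The log2 fold change by label was -0.88 (SE 0.32, adjusted p = 0.0605). It was -1.06 without MC654 library 1 (adjusted p = 0.0367), -1.07 without MC654 library 2 (adjusted p = 0.0315), and -1.37 without the MC654 line (adjusted p = 0.00262). Without the MC659 line it was -0.15.

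Counted over the 9 members other than Bhlhe40, 0 rose and 2 fell by label, Per3 and Nr1d1, at an adjusted p under 0.05 and a size of more than 0.59 on the log2 scale. Of all genes tested, 13.7% were called higher, 8.72% lower and 22.5% either way. The 2 of 9 that fell cannot be read as particular to the clock at that background. By DESeq2, 0 of 9 were higher and 4 were lower, Bhlhe41 and Dbp in addition, where 9.07% of all genes were lower. At an unadjusted p under 0.05 by edgeR, 0 of 9 were higher and 6 were lower, and so were 21.3% of all genes. On the adjusted p alone 3 of 9 passed, Per3, Cry1 and Nr1d1, where 37.5% of all genes did. The ranges of the 4 and 4 libraries did not overlap for 4 of these 9 members, Bhlhe41, Per3, Cry1 and Nr1d1, all lower under the KO label, and for 42.5% of all genes tested. For Bhlhe40 the choice itself used that separation. The median log2 fold change of the 9 was -0.31, and that of all genes tested was 0.02.

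The 2 libraries of a line come from 1 tumor, so the 8 libraries stand for 4 tumors, and the p-values by label are too small for a statement on genotype. When the counts of each line were summed and 2 lines compared with 2 by edgeR, 0 genes of any kind were called, and 3658 genes (21.6% of those tested), 2 of the 9 members among them, had an unadjusted p under 0.05. On those sums Per3 had an adjusted p of 0.193 and Nr1d1 of 0.185. With limma-voom and the line as a random block, the correlation within a line was 0.83 and 2 of the 9 members were called lower, Per3 and Bhlhe41, where 5.54% of all genes were.

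Each KO-labelled line was also set against the WT-labelled lines, with the same 4 WT-labelled libraries in both contrasts. MC010 had 4 of 9 members lower, where 17.4% of all genes were, and 0 of 9 higher by edgeR, where 19.7% were. These were Bhlhe41 (log2 fold change -1.96, SE 0.08, adjusted p = 4.03e-12), Per3 (-0.91, SE 0.06), Nr1d1 (-0.70, SE 0.07) and Dbp (-0.69, SE 0.08). Per2 was 0.39 higher on the log2 scale (SE 0.08, adjusted p = 0.000281), which passed on p but not on size. MC011 had 2 of 9 members lower, Dbp (-0.81, SE 0.08) and Per3 (-0.61, SE 0.06), where 13.4% of all genes were, and 0 of 9 higher by edgeR, where 17.3% were. Both contrasts held members close to the threshold: in MC011 Per3 was not called without MC011 library 2, and Nr1d1 was called without MC011 library 1 or MC654 library 2. In MC010 Dbp was not called without MC010 library 2. Nr1d1 (-0.54), Bhlhe41 (-0.44), Cry1 (-0.40), Per1 (-0.35) and Cry2 (-0.30) passed on p alone in MC011. On p alone, 7 of 9 members passed in MC010, 1 of them higher, Per2, where 70.6% of all genes passed. In MC011 7 of 9 passed, all lower, where 65.3% of all genes did. Bhlhe40 was at -2.09 in MC010 and -2.06 in MC011, given with no test. For Dbp, MC654 alone had nearly the level of the KO-labelled lines, as given above.

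**Figure D2:**
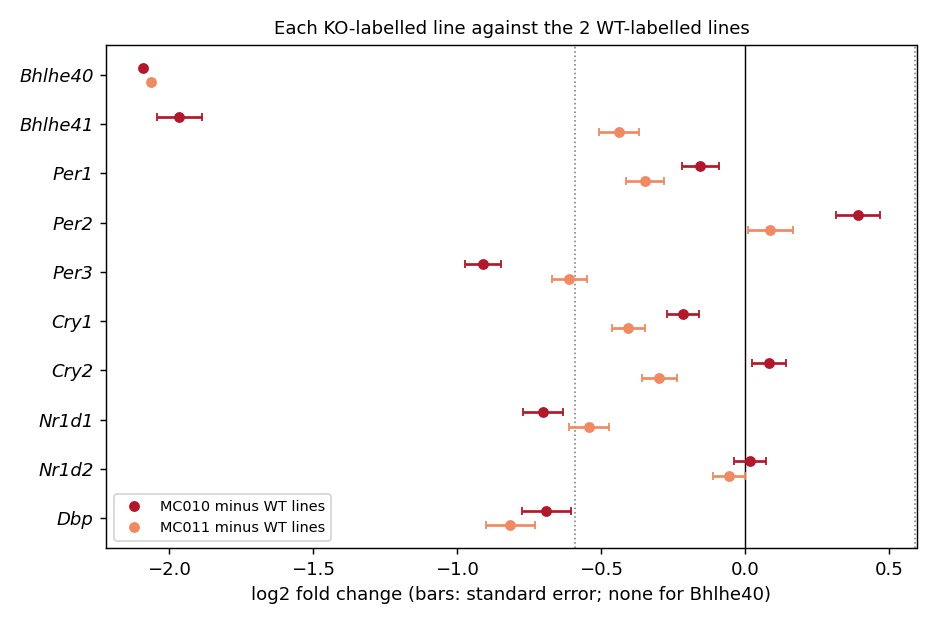
Log2 fold change (horizontal axis) of each member in MC010 (red) and MC011 (orange) against the mean of the WT-labelled lines, from edgeR; bars are standard errors, none is drawn for Bhlhe40, and dotted lines mark 0.59 on either side of 0. Bhlhe40 is near -2.1 in both lines, Bhlhe41 is at -1.96 in MC010 and -0.44 in MC011, and Nr1d2 is near 0 in both.

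The difference between the lines of one label shows how far clock genes vary with no difference in label. Between MC010 and MC011, 1 of the 9 members other than Bhlhe40 passed both thresholds, where 31.6% of all genes did. This was Bhlhe41, which was 2.88-fold lower in MC010 (log2 difference -1.53, SE 0.09, adjusted p = 5.18e-10). On p alone 6 of 9 members passed, where 63% of all genes did: Per1, Per2, Cry1 and Cry2 were higher in MC010, by 0.19 to 0.38 on the log2 scale, and Per3 and Bhlhe41 were lower.

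Between MC654 and MC659, 1 of the same 9 members passed both thresholds, where 4.95% of all genes did. This was Dbp, which was 2.33-fold lower in MC654 (log2 difference -1.22, SE 0.09, adjusted p = 3.87e-07). On p alone 6 of 9 members passed, where 14.5% of all genes did, and all 6 were lower in MC654: Dbp, Per3 (-0.42, adjusted p = 0.000601), Nr1d1 (-0.40, adjusted p = 0.00244), Bhlhe41 (-0.36, adjusted p = 0.00528), Nr1d2 (-0.22, adjusted p = 0.0308) and Cry2 (-0.22, adjusted p = 0.0494). Cry1 was the single member of the 10 with a positive difference, 0.13. By line mean, Per2 was highest in MC010, Cry1 in MC654 and the other members in MC659. MC010 was lowest for Bhlhe40, Bhlhe41, Per3 and Nr1d1, MC011 for Per1, Cry1, Cry2 and Dbp, and MC654 for Per2 and Nr1d2. The shares of all genes highest or lowest in each line were not counted, so this order only describes these members. For Bhlhe40, the choice itself put the highest mean in a WT-labelled line and the lowest in a KO-labelled line.

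**Figure D3:**
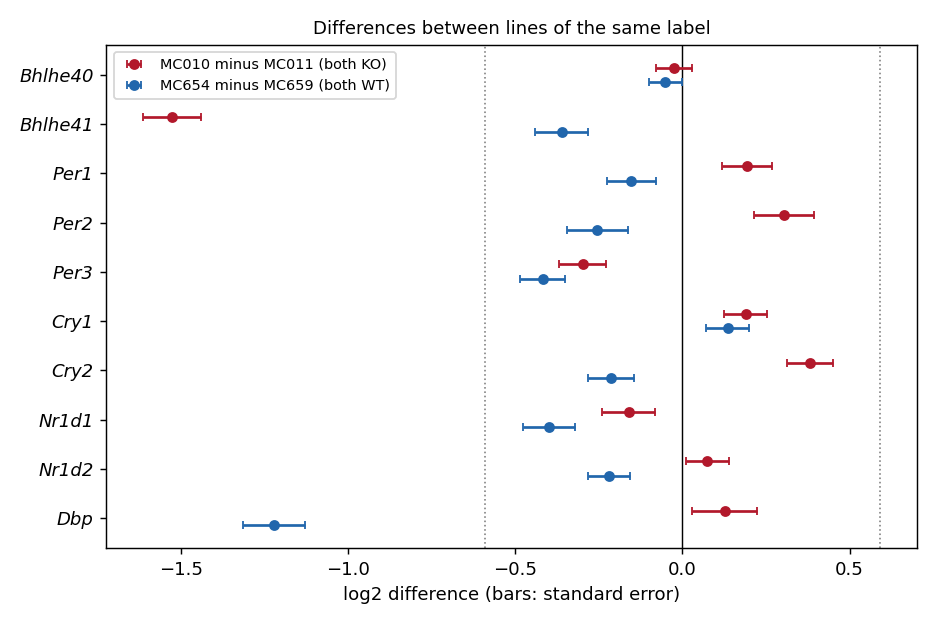
Log2 difference (horizontal axis) of each member between the lines of one label, MC010 minus MC011 in red and MC654 minus MC659 in blue; bars are standard errors and dotted lines mark 0.59 on either side of 0. Bhlhe41 at -1.53 in the first contrast and Dbp at -1.22 in the second lie beyond the lines, and Bhlhe40 is drawn at -0.03 and -0.05 as a description.

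The spread over the 4 lines differed between members. The highest line mean was 4.43 times the lowest for Bhlhe41, 4.33 times for Bhlhe40, 2.69 times for Dbp, 2.16 times for Per3 and 1.87 times for Nr1d1. It was 1.16 to 1.43 times for Nr1d2, Cry2, Per1, Cry1 and Per2. Nr1d2 had the smallest spread. The spread of Bhlhe40 holds the difference it was chosen for, so its place in this order is only a description. Per kilobase of exon, the most abundant member in the KO-labelled libraries was Nr1d2, at 18.1 RPKM, and the least was Bhlhe41, at 1.24 RPKM. In the WT-labelled libraries, Bhlhe40 was the most abundant, at 25.8 RPKM, and Per2 the least, at 1.89 RPKM.

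Of 24 other genes of the clock, 23 passed the filter on low counts, and 8 were called by label, with 6 higher and 2 lower; the shares of all genes were those given above. The median log2 fold change of the 23 was -0.01. Arntl, the partner of CLOCK and the target of REV-ERB repression, had 31.2 and 33.2 CPM in MC010, 30.0 and 30.0 CPM in MC011, and 19.6 and 19.9 CPM in MC654. Arntl in MC659 stood at 16.6 and 18.8 CPM. Arntl rose by label, with a log2 fold change of 0.73 (SE 0.08, adjusted p = 0.00033), where 13.7% of all genes rose. Of the REV-ERB genes, Nr1d1 was at -0.63 and Nr1d2 at -0.02. A link between these levels and that of Arntl was not tested. On line sums its adjusted p was 0.125. Clock itself had a log2 fold change of -0.45 (SE 0.13, adjusted p = 0.0297), short of the fold threshold, with 52.9 and 59.3 CPM in MC010 and 74.5 to 99.1 CPM in the other lines. Npas2, the relative of Clock, had 65, 30, 162 and 138 counts in the KO-labelled libraries and 1, 3, 6 and 2 counts in the WT-labelled libraries (adjusted p = 0.00124), a level too low under the WT label for a useful fold.

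Among the ROR receptors, which activate through the RORE, Rorb rose (log2 fold change 3.11, adjusted p = 0.00111) but was at most 0.646 CPM under the WT label. Rora had 1.13 and 1.05 CPM in MC010, 6.92 and 6.75 CPM in MC011, and 1.15 and 1.31 CPM in MC654. Rora in MC659 stood at 2.06 and 1.87 CPM. Only MC011 was high, so the value by label, 1.31 (adjusted p = 0.161), turned to -0.56 without that line and was 2.08 (adjusted p = 2.2e-05) without MC010. Among the D-box factors, Hlf, a relative of DBP, rose (3.47, adjusted p = 0.0167), carried by MC011 at 2.86 and 2.92 CPM. The call was lost without MC654 library 1 (adjusted p = 0.0524) or library 2 (adjusted p = 0.0528). Fbxl21, a ubiquitin ligase subunit that acts on cryptochromes, rose (2.14, adjusted p = 0.000427), and the other 6 kinases and ligases in the list were not called. The level of Fbxl21 was low, at 1.85 to 2.19 CPM under the KO label and 0.306 to 0.589 CPM under the WT label.

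Ciart, a repressor of CLOCK and BMAL1 whose promoter holds 3 E-boxes, had 5.47 and 5.88 CPM in MC010, 6.90 and 6.89 CPM in MC011, and 10.3 and 11.0 CPM in MC654. Ciart in MC659 stood at 10.4 and 11.3 CPM. It fell by label (log2 fold change -0.77, SE 0.12, adjusted p = 0.00168), and the labels did not overlap. Klf10, a clock-controlled zinc finger factor, fell (-0.90, adjusted p = 0.0289), with MC010 at 42.0 and 40.3 CPM far below MC011 at 85.6 and 84.7 CPM. That call was lost without MC010 library 1 (adjusted p = 0.0534), and without any 1 of the 4 WT-labelled libraries (adjusted p = 0.0587 to 0.0671). Usp2, a ubiquitin protease that acts on clock proteins, rose (1.00, adjusted p = 0.00422), and the other 4 clock-associated genes were not called. Between MC010 and MC011 6 of the 23 were called, where 31.6% of all genes were, and between MC654 and MC659 1 of the 23, Rora, where 4.95% were.

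**Figure D4:**
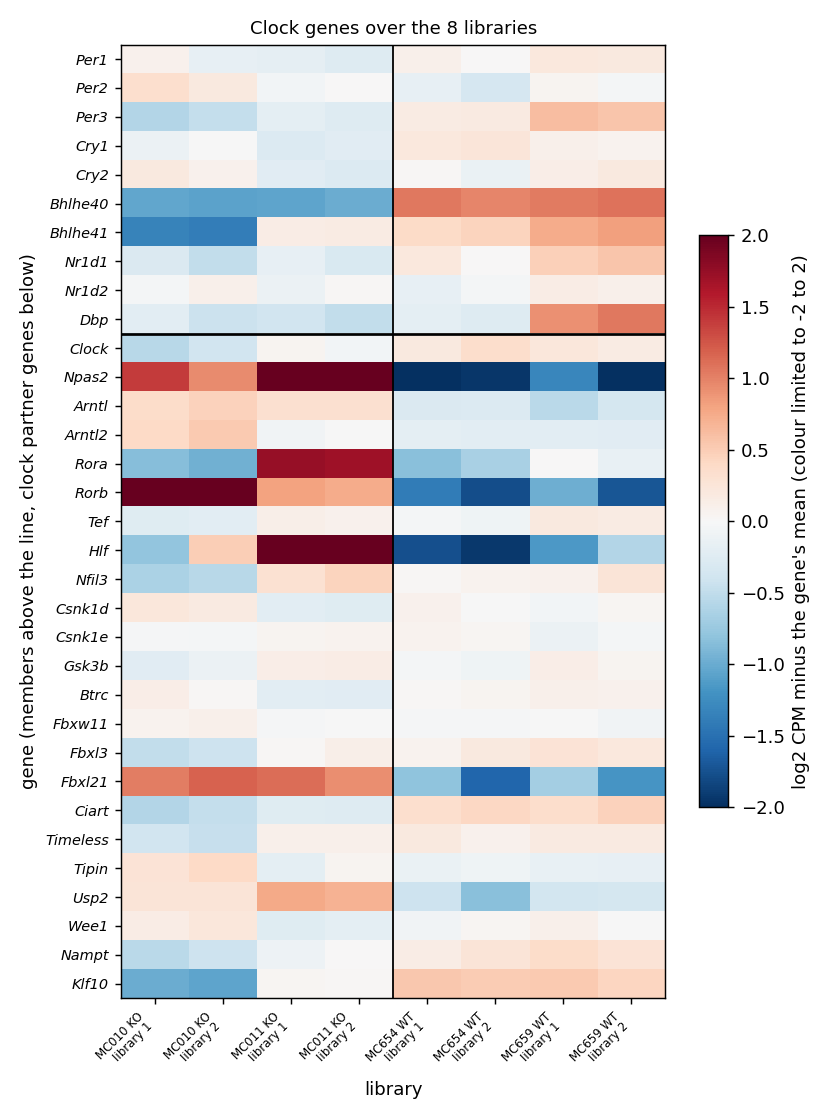
Log2 CPM of each clock gene minus its own mean over the 8 libraries (colour scale limited to -2 to 2), with the 10 members above the horizontal line and the partner genes below it; the vertical line separates the libraries labelled IRF8 KO from those labelled WT. Bhlhe40, Per3, Cry1, Nr1d1 and Ciart are below their means in all KO-labelled libraries, and Arntl, Npas2, Rorb, Fbxl21 and Usp2 are above theirs. Dbp is high in MC659 alone, and Bhlhe41 and Klf10 are lowest in MC010.

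Bhlhe40 responds to several inputs beside the clock, and lists of genes induced by the same inputs were read beside it. Of all genes tested, 22.5% were called by label, 13.7% higher and 8.72% lower, and the counts of these short lists stand beside those shares. Of 10 HIF-1 target genes, which rise in hypoxia, 9 were in the table and 5 were called by label, 2 higher and 3 lower. Vegfa, the angiogenic growth factor (log2 fold change -1.08, SE 0.10, adjusted p = 0.000152), Bnip3, a mitophagy receptor (-1.34, SE 0.13, adjusted p = 0.000173) and Slc2a1, the glucose transporter GLUT1 (-0.67, SE 0.10, adjusted p = 0.00152) fell. Adm, the vasodilator adrenomedullin (2.62, SE 0.35, adjusted p = 0.0009) and Ndrg1, a stress-induced gene (1.08, SE 0.34, adjusted p = 0.0367) rose, so the list did not move one way. Of 8 immediate early genes 2 were called: Egr1, a serum-induced zinc finger factor, fell (-3.01, SE 0.34, adjusted p = 0.000389) and Sik1, a kinase induced by cAMP, rose (1.06, SE 0.20, adjusted p = 0.00425). Of 5 glucocorticoid-responsive genes 3 were in the table, and 1 was called: Sgk1, a kinase, rose (1.47, SE 0.46, adjusted p = 0.0377), with 1043 and 1068 CPM in MC010 and 240 to 294 CPM in the other lines. The part of any of these inputs in the level of Bhlhe40 was not tested.

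The genes whose pattern was most like that of Bhlhe40 were Tns3, Tdrkh, Adam12, Gpt2 and Gas2, by the root mean square distance of log2 CPM over the 8 libraries after each gene was centred on its own mean. The distances were 0.106, 0.129, 0.143, 0.144 and 0.145. Tns3, a focal adhesion protein, had line means of 137 CPM in MC010, 144 CPM in MC011, 529.8 CPM in MC654 and 514 CPM in MC659. None of the other 9 members was among these 5 genes. Likeness was scored on the same libraries that selected Bhlhe40, so it describes these libraries alone.

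Some members share exon bases with a gene on the other strand, and the strand setting used in counting is not given in the sources used here. Nr1d1 shares 263 bases, 8.55% of its exon length, with Thra, a thyroid hormone receptor gene, whose log2 fold change by label was -0.01 (adjusted p = 0.98). MC654 minus MC659 was -0.39 for Thra and -0.40 for Nr1d1 on the log2 scale. In MC010 and MC011 the line means were 40.3 and 88.7 CPM for Thra, and 41.6 and 46.6 CPM for Nr1d1. The part of Thra reads in the counts of Nr1d1 was not tested. Dbp shares 539 bases, 18% of its exon length, with Sphk2, a sphingosine kinase gene, which had a difference of 0.08 (adjusted p = 0.591) between MC654 and MC659, where Dbp differed by -1.22. The partners of Bhlhe40 and Bhlhe41 on the other strand had 0 to 28 and 2 to 9 counts per library.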

How the data were processed

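The authors sequenced stranded mRNA libraries, and the submitters' processing notes name STAR 2.7.3a, HTSeq 0.11.2, DESeq2 and mm10 (GRCm38.p6); the paper's methods give other versions of the first 2. The deposited table holds whole-number counts per gene and library, which were analysed here, and a signal, the count divided by a size factor per library, which was not. Columns of the authors' own comparison (mean, fold change, p-value) were not used. All 8 libraries were matched by name, and 0 columns of library values had no match. Sex chromosome genes were not analysed here.

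The analysis used edgeR 4.0.16 (R 4.3.3). The filterByExpr step kept 15153 of 18768 genes, counts were scaled by TMM, and a robust quasi-likelihood test compared 4 libraries with 4, without other terms. A second fit had 1 group per line. Adjustment followed Benjamini and Hochberg over all genes, and a call needed an adjusted p under 0.05 and a size of more than 0.59 on the log2 scale. Standard errors were derived from the F statistic. CPM per kilobase (RPKM) used union exon lengths of GENCODE M21, in which all 10 members had the same start and end as in the table. The libraries of a line differed by more than sampling noise (chi-square per gene 7.51 to 12.8), so each was kept. The floor of 3 counts was 0.0262 to 0.0408 CPM, covering counting error only. Equal library numbers did not deviate together (r between -0.03 and 0.06).

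Members, lists and tests were chosen with earlier results of these data known. The text names the 10 members, the genes of the clock and input lists past the thresholds, Clock, Arntl, Npas2 and Rora in any case, and the 5 genes most like Bhlhe40 with a mean log2 CPM of at least 1. Alternatives were DESeq2 1.42.0, no filter, upper-quartile scaling, a replicate block, line sums, limma-voom 3.58.1 with the line as a random block, no fold threshold, and each library and line left out. The fits were tested on simulated counts in which the libraries were drawn independently, with no deviation shared by the libraries of a line. That check therefore does not give the error rate by label for libraries that share a tumor.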

Additional observations from a re-analysis of the deposited data

Results flagged for a closer look

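Bhlhe41 differed between the lines labelled IRF8 KO, with a log2 difference of -1.53 for MC010 minus MC011 (edgeR adjusted p = 5.18e-10), so that its difference from the WT-labelled lines was -1.96 in MC010 and -0.44 in MC011. It stands here because the effects in these lines differed by a test of the difference itself.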

How the results depend on the processing

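The count of members lower under the KO label, 2 of 9, was 4 by DESeq2, 0 on line sums, 1 without the MC010 line, 0 without the MC659 line, and 1 to 3 when any 1 library was left out. The 8 clock partner genes called became 5 with limma-voom, 0 on line sums and 5 without the MC654 line, and 6 to 9 without 1 library. With no fold threshold, 7 members passed in MC010, 7 in MC011, 6 between MC010 and MC011 and 6 between MC654 and MC659. In MC011 the count of 2 ranged from 1 to 3 without 1 library, and in MC010 the count of 4 from 3 to 4. Signs turned for values near 0: Nr1d2 by label (-0.0802 to 0.0205 without 1 library, 0.00722 without MC011, 0.0826 without MC659), Cry2 by label (0.0729 without MC011, 0.00344 without MC659), Bhlhe40 between MC010 and MC011 (-0.0499 to 0.00924 without 1 library), and also for Rora by label (-0.56 without MC011). The cause of these moves was not tested. With the replicate block, 2 members were lower by label and 8 partner genes were called, and no other count changed; equal numbers do not mark shared cultures in the labels. Of 600 values of single genes under alternatives, 545 were kept, 34 lost the call, 11 gained it and 10 turned sign. A value was kept if its direction and side of the threshold held. Bhlhe40 by label has no call, so its 18 values were kept if the sign held and the move was smaller than the SD within a label. Its differences within a label were scored like those of the other genes, as a description. Depth does not limit the members, each with at least 310 counts in every library, but does limit Npas2 and Hlf under the WT label. Rorb and Fbxl21 were also low there, at 31 to 57 and 26 to 52 counts.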
